A study of Danio rerio with 6 samples.

Results

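The 5 genes described here, fbp1b, bhmt, nansa, uox and gldc, encode enzymes of sugar, methyl group, sialic acid, urate and glycine metabolism. They were chosen by name, because on these arrays several of them were dimmer in sorted vascular cells than in whole zebrafish embryos, so the comparison of sorted cells with whole embryos is given for them as a description with no test. Their probes were found through the sequence accession or the description that the array annotation gives, which yielded 16 of the 13999 zebrafish probes kept and 5 of 5004 named genes. The series holds 6 one-colour oligonucleotide arrays, 1 for each condition, so that no condition has a replicate. The sorted samples were green fluorescent cells isolated by flow sorting from Tg(Fli1:EGFP) embryos at 18, 24 and 28 hpf (hours post fertilization) and from Tg(Flk:GRCFP) embryos at 18 hpf. Whole embryos at 18 and 24 hpf, whose line the labels do not give, supplied the other 2 samples. For the Flk array the title and the design give 18 hpf, but the sample description gives 24 hpf, so its values are also set beside the whole embryo at 24 hpf. All embryos were grown at 28 degrees and untreated, every RNA went through 2 rounds of amplification before Cy3 labelling, and the number of animals or cells behind each sample is not stated by the sources used here. The fli1 promoter drives reporter expression in endothelium and early blood cells, but also in some neural crest derivatives, so the Fli1 sort is not a pure endothelial population.

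Fructose-1,6-bisphosphatase, encoded by fbp1b, takes the phosphate off fructose 1,6-bisphosphate and is a control point of gluconeogenesis, which runs mainly in liver and kidney of mammals. Betaine-homocysteine methyltransferase, encoded by bhmt, remakes methionine from homocysteine with betaine as the methyl donor and is abundant in mammalian liver. Sialic acid synthase (nansa) makes the phosphorylated precursor of sialic acid, urate oxidase (uox) breaks down urate in peroxisomes, and glycine decarboxylase (gldc) is the decarboxylating subunit of the mitochondrial glycine cleavage system. In embryos of these stages the liver is only starting to form, and the yolk syncytial layer, a multinucleate layer around the yolk, expresses many genes that are later typical of liver.

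The data split the 5 genes. For fbp1b, bhmt and nansa the brightest probe was well above background on both whole-embryo arrays and dimmer on all 4 sorted arrays. The signal of uox came from 1 probe on 1 array, the whole embryo at 18 hpf. The gldc probes were below background on every array except for 1 probe on the Fli1 array at 28 hpf. With no gldc signal above background in whole embryos, these arrays could not show whether gldc was lower in sorted cells. A spot counted as above background when its intensity, local background subtracted, exceeded the 95th percentile of 173 Arabidopsis control spots on the same array, a limit of 212 to 241 intensity units on the sorted arrays and 308.5 to 370 on the whole-embryo arrays. By this limit 24.7% to 42.6% of the zebrafish probes were above background on a sorted array and 37.5% to 39.4% on a whole-embryo array. The bright end was dimmer on the sorted arrays: the 99th percentile of intensity was 3039 to 10112 units there and 20536 to 26835 on the whole-embryo arrays. Fold changes therefore come from quantile-normalized log2 signal, while the intensities are quoted before normalization, and probes of different sequence are not compared in level.

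Of fbp1b there were 2 probes. Its first probe read 105, 82 and 105.5 units in Fli1 cells at 18, 24 and 28 hpf and 101 units in Flk cells, against 21572 and 12206 units in whole embryos at 18 and 24 hpf. All 4 sorted values were below the background limit and below both whole-embryo values, so the folds are lower bounds, set by the dimmest signal that still counted as measured. By this probe Fli1 cells at 18 hpf were at least 18.8-fold below whole embryos of that stage, and at 24 hpf at least 18.7-fold below. In Flk cells it was at least 28.0-fold below the whole embryo of 18 hpf, and at least 22.8-fold below that of 24 hpf. The second fbp1b probe read 220, 279 and 254 units in Fli1 cells and 225 units in Flk cells, against 563 and 802.5 units in whole embryos. It pointed the same way but gave far smaller differences: no measurable fold in Fli1 cells at 18 hpf, where the normalized log2 difference was -0.01, and 1.57-fold lower in Fli1 cells at 24 hpf. The probes of fbp1b thus disagree on the size by more than 10 times, and the files do not say which parts of the transcript they match.

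Of bhmt there were 3 probes, and they agreed. The first read 269, 317.5 and 286 units in Fli1 cells and 394.5 units in Flk cells, against 10386.5 and 26612.5 units in whole embryos at 18 and 24 hpf. This probe stayed above background on all 4 sorted arrays, so by the rule used here its folds are measured on both sides. Its Fli1 values were, however, close to the background limits of 221.6, 241 and 212 units at 18, 24 and 28 hpf. The size of its folds in Fli1 cells is therefore uncertain. Against whole embryos of the same stage bhmt was 7.88-fold lower in Fli1 cells at 18 hpf, 32.04-fold lower at 24 hpf, and 9.32-fold lower in Flk cells at 18 hpf. The second probe read 102, 226.5 and 86 units in Fli1 cells and 189.5 units in Flk cells, against 12434 and 22018.5 units in whole embryos. The third read 60.5, 48 and 49 units in Fli1 cells and 81 units in Flk cells, against 1773 and 9692.5 units in whole embryos. Both were below background on every sorted array, and their bounds were at least 11.5-fold and at least 2.40-fold lower in Fli1 cells at 18 hpf. At 24 hpf the same probes were at least 33.2-fold and at least 15.2-fold lower in Fli1 cells. On none of the 3 probes did a sorted value overlap the whole-embryo values.

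The nansa probes differed among themselves. The first read 321, 386 and 168 units in Fli1 cells at 18, 24 and 28 hpf and 677 units in Flk cells, against 6059.5 and 8401.5 units in whole embryos. Only the Fli1 array at 28 hpf fell below its background limit. By this probe and against the same stage, nansa was 3.84-fold lower in Fli1 cells at 18 hpf, 8.29-fold lower at 24 hpf, and 3.398-fold lower in Flk cells at 18 hpf. The second probe read 172, 240.5 and 122 units in Fli1 cells and 229.5 units in Flk cells, against 600 and 635 units in whole embryos. The third read 154, 187 and 78.5 units in Fli1 cells and 335.5 units in Flk cells, against 384 and 672 units in whole embryos. The second probe had all sorted values below both whole-embryo values after normalization, but the third did not. On the third probe Flk cells were 1.23-fold higher than whole embryos at 18 hpf but 1.41-fold lower than those at 24 hpf. In Fli1 cells at 18 hpf there was no measurable fold, with a log2 difference whose sign changed with the scaling. At 24 hpf the third probe was at least 1.60-fold lower in Fli1 cells and the second at least 1.54-fold lower.

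**Figure D1:**
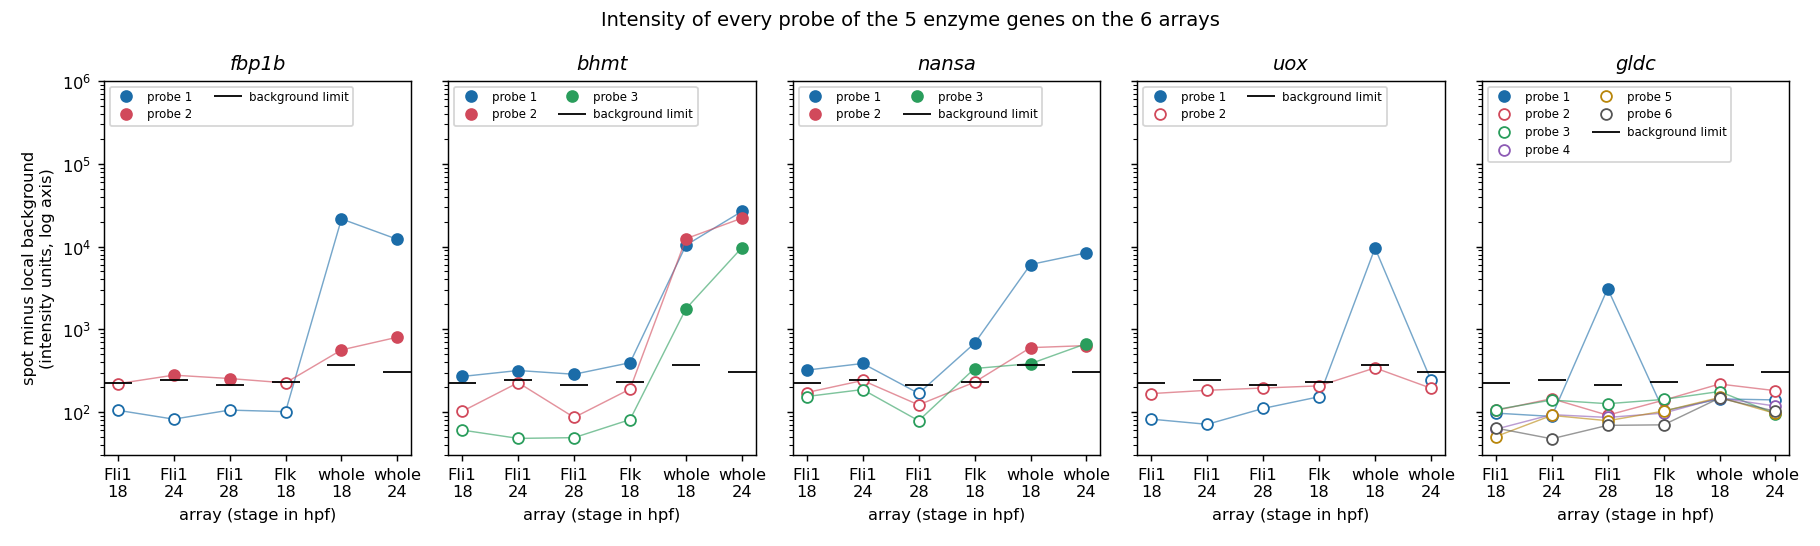
Spot intensity minus local background (log axis) of all 16 probes on the 6 arrays, with 1 panel for each gene and sorted cells left of whole embryos; filled points are above the array's background limit (black bar), open points are not. The first fbp1b probe and all 3 bhmt probes stand high only on the whole-embryo arrays, uox has its single filled point at 9589.5 units in the whole embryo at 18 hpf, and gldc its single filled point at 3105.5 units in Fli1 cells at 28 hpf.

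Both uox and gldc rest on 1 spot each. The first uox probe read 82, 71 and 110.5 units in Fli1 cells and 153 units in Flk cells, against 9589.5 and 243 units in whole embryos at 18 and 24 hpf. The whole embryo at 18 hpf was thus the only array on which uox was above background. The bound was at least 9.36-fold lower in Fli1 cells and at least 13.9-fold lower in Flk cells than in whole embryos at 18 hpf. At 24 hpf Fli1 cells and whole embryos were both below background, so no fold can be given. The same holds for Flk cells set beside the whole embryo of 24 hpf. The second uox probe, at 167, 183 and 195 units in Fli1 cells, 207 units in Flk cells and 341.5 and 194 units in whole embryos, was below background on all 6 arrays and does not show the 18 hpf value. The bright uox spot was bright in each of the authors' 3 scans of that slide, at 3047, 9589.5 and 31019.5 units at scanner settings 45, 55 and 65. The first gldc probe read 97, 88.5 and 3105.5 units in Fli1 cells at 18, 24 and 28 hpf and 103 units in Flk cells, against 144 and 140 units in whole embryos. Its 28 hpf value was at least 27.7-fold higher than that of Fli1 cells at 24 hpf, and the spot was likewise bright in all 3 scans, at 988.5, 3105.5 and 11911.5 units. The other 5 gldc probes, between 47.5 and 218 units over the 6 arrays, were below background everywhere, including on the array where the first was bright. None of the 16 probes was saturated at setting 55, the one used for all values here, whereas at setting 65 the first fbp1b probe in the whole embryo at 18 hpf and the first 2 bhmt probes at 24 hpf lay near the scanner ceiling.

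Over the whole set, 10 of the 16 probes were above background on at least 1 array, 8 on both whole-embryo arrays and 5 on at least 1 sorted array. On 8 of the 16 probes, namely 2 of fbp1b, 3 of bhmt, 2 of nansa and 1 of uox, all 4 sorted arrays were below both whole-embryo arrays, and this count was the same under quantile normalization, 75th percentile scaling and the authors' own scaling. Among all 13999 zebrafish probes 12.3% showed that order, and 22.5% among the 4520 probes that were above background on both whole-embryo arrays. For the second fbp1b probe the dimmer whole-embryo array was only 1.01-fold above the brightest sorted array under quantile normalization. For the first uox probe every array except the whole embryo at 18 hpf was below background, so its order says little. With the brightest probe standing for the gene, 4 of the 5 genes were at least 2-fold lower in Fli1 cells at 18 hpf than in the whole embryo (13.0% of the 6139 genes and unnamed probes tested), 3 of 5 at 24 hpf (7.87%), and 4 of 5 in Flk cells against the whole embryo of 18 hpf (6.69%, with 6.97% higher). With the probes of a gene averaged, nansa was no longer past 2-fold at 18 hpf, leaving 3 of 5 in both Fli1 and Flk cells. Set beside the whole embryo of 24 hpf instead, 3 of 5 were lower in Flk cells (6.39%, with 6.27% higher). Among all 6139, 15.3% had every sorted array below both whole-embryo arrays. Because the genes were picked from this contrast, nothing is read from those counts. The mean log2 signal of the 4 sorted arrays minus that of the 2 whole-embryo arrays was -5.48 ± 0.27 for fbp1b, -4.04 ± 0.45 for bhmt, -2.70 ± 0.45 for nansa, -2.62 ± 0.90 for uox and 1.44 ± 1.59 for gldc (each with the standard error of the limma fit, in which arrays of different stage and line stand in for replicates). The standard error of gldc exceeded its difference, and without the Fli1 array at 28 hpf the difference was -0.047. That of uox was -0.63 without the whole embryo at 18 hpf and -4.61 without the one at 24 hpf. Averaging all probes of a gene, in place of taking the brightest, moved fbp1b to -2.98, nansa to -1.40, uox to -1.22 and gldc to 0.21, while bhmt was at -4.50. In such bulk samples fewer cells of a type and less RNA per cell cannot be told apart.

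**Figure D2:**
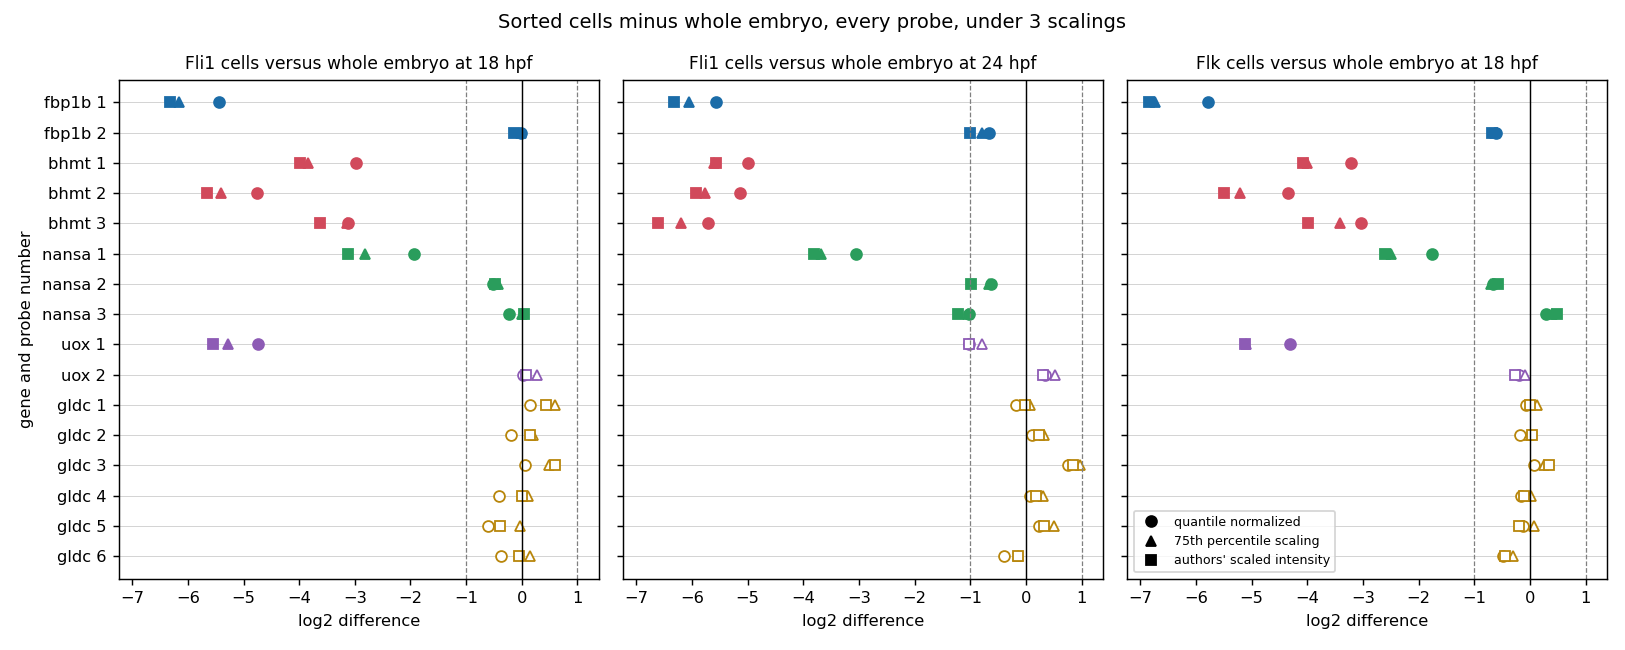
Log2 difference, sorted cells minus whole embryo, for every probe in the 3 comparisons at 18 and 24 hpf, with circles for quantile-normalized signal, triangles for 75th percentile scaling and squares for the authors' scaled intensity; open symbols have a brighter side that was below background, and dashed lines mark 2-fold. The first fbp1b probe and the bhmt probes lie left of the 2-fold line under all 3 scalings, with quantile normalization giving the smallest differences, whereas the second fbp1b probe and the remaining nansa probes lie near or inside it.

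The whole-embryo arrays, set against each other, ask how the genes differ between stages. For uox this is no independent contrast, since its single measured value, in the whole embryo at 18 hpf, is also the value that put it in the set. In this comparison bhmt was higher and uox lower at 24 than at 18 hpf, and the brightest probes of fbp1b and nansa differed by less than 2-fold. All 3 bhmt probes were higher at 24 hpf, by 3.39-fold, 2.36-fold and 5.18-fold, and bhmt was 1 of the 5.67% of genes and unnamed probes that were at least 2-fold higher. Under the authors' scaling the second probe had a log2 difference of 0.96, just under 2-fold. The 3 nansa probes were 1.73-fold, 1.20-fold and 1.74-fold higher at 24 hpf, and the third had a log2 difference of 1.14, past 2-fold, under the authors' scaling. The fbp1b probes pointed in opposite directions, the first 1.23-fold lower and the second 1.49-fold higher at 24 hpf. By its first probe uox was at least 13.2-fold dimmer at 24 hpf, where 3.97% of all tested were at least 2-fold lower, and its second probe was below background at both stages. With 1 array per stage none of these differences has a replicate check.

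Within sorted cells 1 of the 5 genes, gldc, passed 2-fold. Between Fli1 cells at 24 and 18 hpf none did (5.05% of all tested passed upward and 3.78% downward), and the probes measured on both sides, the first of bhmt and the first of nansa, were 1.20-fold and 1.25-fold lower at 24 hpf. The stage difference of bhmt in whole embryos was not seen in Fli1 cells, where its first probe was close to the background limit and its other probes were below it. The difference between these differences cannot be tested with 1 array each. Between Fli1 cells at 28 and 24 hpf gldc was the only one past 2-fold (7.93% of all tested were higher and 10.2% lower), and the first nansa probe was at least 1.57-fold lower. Between Flk and Fli1 cells at 18 hpf a difference could be given for bhmt and nansa alone, as fbp1b, uox and gldc were below background on both arrays. Neither passed 2-fold (5.54% of all tested were higher in Flk cells and 3.58% lower), with the first bhmt probe 1.18-fold lower and the first nansa probe 1.13-fold higher in Flk cells.

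The other genes of the same pathways were then examined, with lists written with earlier results of these arrays known. Their pathway partners were neither uniformly lower nor uniformly higher in sorted cells. Over 6139 genes and unnamed probes limma, with Benjamini-Hochberg adjustment, found 44 (0.717%) lower and 3 (0.0489%) higher in the 4 sorted than in the 2 whole-embryo arrays, with a median log2 difference of 0.08. Leaving the 5 enzymes out, no gene of the 5 pathway lists passed this test in either direction. The median log2 difference was 0.29 over 30 genes of gluconeogenesis and glycolysis, -0.31 over 12 of methionine and one-carbon metabolism, 0.04 over 8 of glycine cleavage and serine metabolism, 0.15 over 14 of purine metabolism and -0.15 over 5 of sialic acid and amino sugar metabolism.

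In gluconeogenesis, 9 of the 30 other genes passed 2-fold upward and 2 downward in Fli1 cells against the whole embryo of 18 hpf (9.89% and 13.0% of all tested). At 24 hpf 2 passed upward and 3 downward (4.43% and 7.87%). The upward count at 18 hpf depended on the scaling: it was 3 by 75th percentile and 1 by the authors' scaling, with 3 and 4 downward. The paralog fbp1a, which has its own probes, read 380, 370 and 381 units in Fli1 cells and 331 units in Flk cells, against 469 and 426 units in whole embryos. Its log2 difference over the 6 arrays was 0.60 ± 0.35 (limma adjusted p = 0.34) after normalization, although its intensities before normalization were lower in sorted cells. In whole embryos fbp1a was close to the background limits of 370 and 308.5 units at 18 and 24 hpf. It therefore could not show a fall like that of the first fbp1b probe, and no contrast between the paralogs is drawn. The gene pck1, whose product makes phosphoenolpyruvate for gluconeogenesis, read 973, 1176 and 1632 units in Fli1 cells and 1375.5 units in Flk cells, against 2077.5 and 2094 units in whole embryos, a log2 difference of 0.90 ± 0.47 after normalization (adjusted p = 0.31). At 18 hpf its difference between Fli1 cells and the whole embryo was 1.40 by quantile normalization, 0.26 by 75th percentile and 0.03 by the authors' scaling. At 24 hpf it changed sign with the scaling, at 0.17 by quantile normalization, -0.19 by 75th percentile and -0.21 by the authors' scaling. Hexokinase 1 (hk1), which phosphorylates glucose on entry, was 2.02-fold and 3.498-fold higher in Fli1 cells at 18 and 24 hpf (log2 difference 1.28 ± 0.30, adjusted p = 0.12). At 18 hpf its log2 difference was smaller under the other scalings, 0.65 and 0.52.

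In the methionine cycle the 2-fold rule was applied to the 12 other genes. In Fli1 cells at 18 hpf 1 was higher and 1 lower (9.89% and 13.0% of all tested). At 24 hpf 0 were higher and 4 lower (4.43% and 7.87%). The higher call at 18 hpf depended on the scaling, with 0 higher and 2 lower by 75th percentile and 0 and 3 by the authors' scaling. At 24 hpf these scalings gave 0 higher, with 4 and 5 lower. Those called lower at 24 hpf by quantile normalization were ahcy, gnmt, cbsb and shmt1. Of these cbsb was below background in Fli1 cells, so that its size is only a bound. The first, ahcy, splits S-adenosylhomocysteine to homocysteine, the substrate of bhmt, and read 388 units in Fli1 cells against 2163 units in whole embryos at 24 hpf, a 2.54-fold difference after normalization. The glycine methyltransferase gnmt, which uses up S-adenosylmethionine in liver, read 343 units in Fli1 cells against 1481 units in whole embryos at 24 hpf, a 2.07-fold difference. At 18 hpf ahcy and gnmt were below background on both sides. The gene shmt1, which moves a carbon between serine and folate, read 320, 923.5 and 382.5 units in Fli1 cells and 460 units in Flk cells, against 3181 and 5117 units in whole embryos. It was 2.34-fold lower at 18 hpf and 2.37-fold lower at 24 hpf in Fli1 cells, with a log2 difference of -1.56 ± 0.41 over all arrays (adjusted p = 0.14). The cystathionine synthase gene cbsb was at least 1.82-fold lower at 24 hpf and within 1.05-fold at 18 hpf, and mat1a, whose product makes S-adenosylmethionine, had a log2 difference of 0.02 ± 0.38 (adjusted p = 0.98).

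By stage, the 2 of these 12 genes that were at least 2-fold higher in whole embryos at 24 than at 18 hpf were ahcy and gnmt, and none was lower. Of all tested 5.67% were higher and 3.97% lower. Signal of ahcy was 2163 units at 24 hpf and 319 units, below background, at 18 hpf, at least 4.44-fold higher. Signal of gnmt was 1481 units at 24 hpf and 351 units, below background, at 18 hpf, at least 3.204-fold higher. These and bhmt, all measured by separate probes, were each higher at 24 hpf under all 3 scalings. In Fli1 cells ahcy was at least 1.29-fold and gnmt at least 1.14-fold higher at 24 than at 18 hpf, while the first bhmt probe was 1.20-fold lower.

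**Figure D3:**
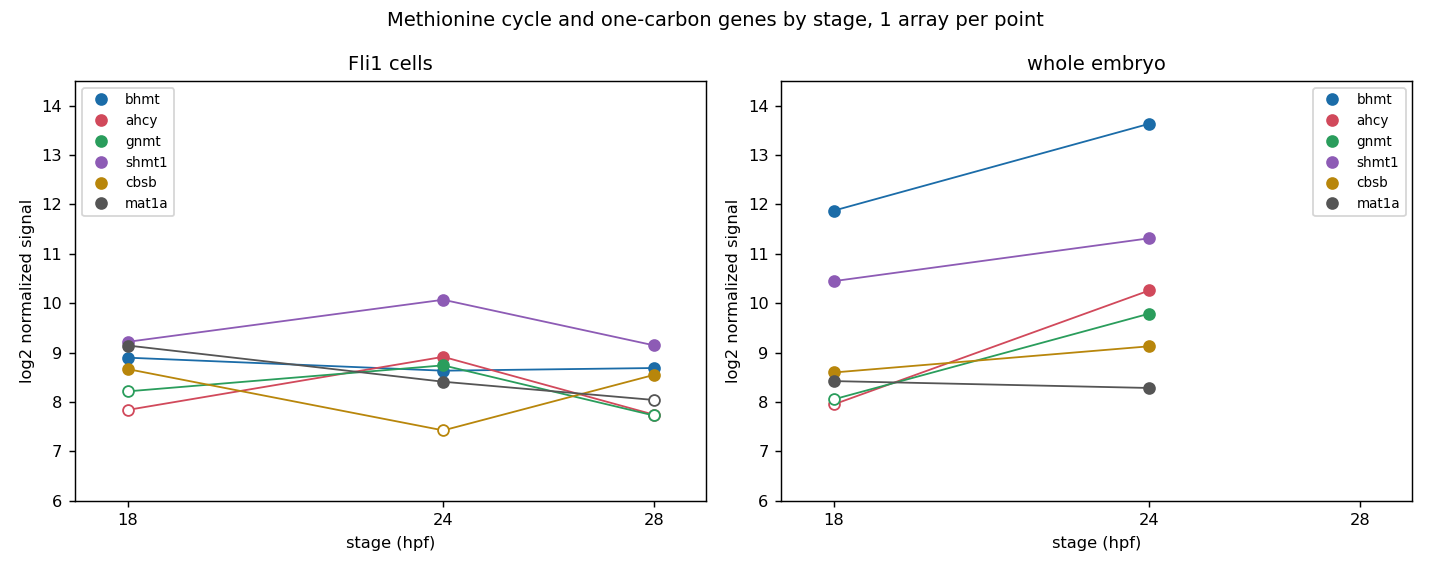
Quantile-normalized log2 signal of bhmt and 5 genes of the methionine cycle and one-carbon metabolism by stage in hpf, in Fli1 cells and in whole embryos, 1 array for each point; filled points are above background and open points are not. In whole embryos bhmt, ahcy and gnmt are each more than 2-fold higher at 24 than at 18 hpf, while in Fli1 cells the first bhmt probe differs by 1.20-fold.

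In glycine metabolism the partners of gldc in the cleavage system did not share its single bright array. The aminomethyltransferase amt, its neighbour in the reaction, read 179, 194 and 290 units in Fli1 cells and 291 units in Flk cells, against 358 and 239.5 units in whole embryos, above background only in Fli1 cells at 28 hpf and in Flk cells. The carrier protein gene gcsha, by contrast, was bright in whole embryos and dim in sorted cells, at 463.5, 723 and 273 units in Fli1 cells and 1310.5 units in Flk cells, against 5188 and 3984 units in whole embryos. It was 2.09-fold and 2.28-fold lower in Fli1 cells at 18 and 24 hpf (log2 difference -1.33 ± 0.45, adjusted p = 0.20). The alanine-glyoxylate aminotransferase agxtb was 3.52-fold and 3.02-fold higher in Fli1 cells at those stages (log2 difference 1.25 ± 0.55, adjusted p = 0.26). Of the 8 other genes of the list, 2 were higher and 2 lower in Fli1 cells at 18 hpf (9.89% and 13.0% of all tested). At 24 hpf 1 was higher and 2 were lower (4.43% and 7.87%). By 75th percentile and by the authors' scaling 1 was higher at 18 hpf and 3 were lower at 24 hpf.

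Among purine genes, the xanthine dehydrogenase xdh makes the urate that uox degrades. It read 311.5, 303 and 370.5 units in Fli1 cells and 372 units in Flk cells, against 443 and 294 units in whole embryos. Its log2 difference was 0.70 ± 0.30 (limma adjusted p = 0.25). The background limits of the whole-embryo arrays were 370 and 308.5 units at 18 and 24 hpf. With whole-embryo signal this near the limit, xdh could not show a drop like that of uox. A pair of genes of purine synthesis was lower at both stages. The gene paics, which encodes an enzyme of the middle steps, read 501, 801.5 and 326 units in Fli1 cells and 1676.5 units in Flk cells, against 8819 and 9915.5 units in whole embryos, and was 2.94-fold and 5.03-fold lower in Fli1 cells at 18 and 24 hpf. The next enzyme, encoded by adsl, was 2.42-fold and 2.99-fold lower. Neither passed the test over the 6 arrays, with log2 differences of -2.05 ± 0.47 (adjusted p = 0.12) and -1.60 ± 0.41 (adjusted p = 0.14). Among the 14 other purine genes none was higher and 2 were lower in Fli1 cells at 18 hpf (9.89% and 13.0% of all tested). At 24 hpf 1 was higher and 3 were lower (4.43% and 7.87%). By the authors' scaling 3 were lower at 18 hpf. Of the sialic acid list none of the 5 other genes passed 2-fold at either stage by quantile normalization. Under 75th percentile and under the authors' scaling 1 was lower in Fli1 cells at 24 hpf. The gene gne, which makes the precursor that nansa uses, was below background on all 6 arrays.

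**Figure D4:**
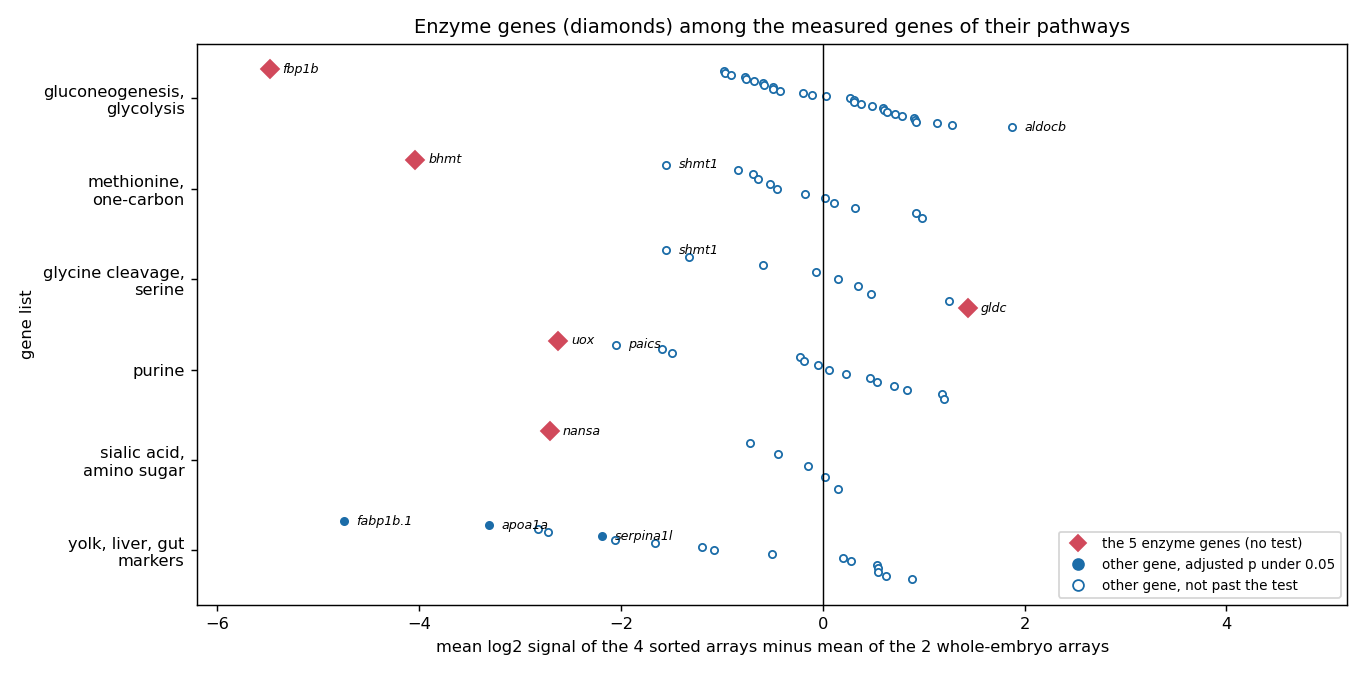
Log2 difference of the mean of the 4 sorted arrays minus the mean of the 2 whole-embryo arrays for the measured genes of 5 pathway lists and of a yolk, liver and gut marker list; diamonds are the 5 enzyme genes, which get no test, and filled circles are other genes with a limma adjusted p under 0.05. Diamonds lie at -5.48, -4.04, -2.62 and -2.70 for fbp1b, bhmt, uox and nansa and at 1.44 for gldc, and the filled circles are fabp1b.1, apoa1a and serpina1l.

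Some marker genes were, like fbp1b and bhmt, lower in sorted cells, and their part in the differences was not tested. Of the 17 measured genes of the yolk syncytial layer, liver and gut list, 10 had a negative log2 difference and the rest did not (median -1.07). By the limma test 3 fell in sorted cells and none rose. They were the fatty acid binding protein gene fabp1b.1 (-4.75 ± 0.27, limma adjusted p = 0.000172), the apolipoprotein gene apoa1a (-3.31 ± 0.36, adjusted p = 0.010) and the protease inhibitor gene serpina1l (-2.19 ± 0.33, adjusted p = 0.025). The call of fabp1b.1 held under every alternative in which it was tested, and that of apoa1a was lost without the whole embryo at 24 hpf (adjusted p = 0.068). The call of serpina1l was lost when any 1 array other than Fli1 at 28 hpf was left out, with an adjusted p up to 0.17. By the 2-fold rule 2 of the 17 were higher and 5 lower in Fli1 cells at 18 hpf (9.89% and 13.0% of all tested). At 24 hpf none was higher and 9 were lower (4.43% and 7.87%). This was not particular to the list. In Fli1 cells at 24 hpf 10 of 17 muscle genes and 10 of 14 epidermis and periderm genes were lower, with 0 and 1 higher. Before normalization the summed intensity of this list was 2972, 3428 and 3650 units in Fli1 cells and 3887 units in Flk cells, against 29940 and 46587 units in whole embryos. Such sums follow the brightest genes, and the bright end of all probes was dimmer on the sorted arrays. After normalization the median log2 difference of the list in Fli1 cells was -0.13 at 18 hpf and -1.93 at 24 hpf. In Flk cells at 18 hpf it was -0.44. The liver fatty acid binding protein fabp10a and the transcription factor hnf4a, both used as liver markers, were below background on the whole-embryo arrays. They therefore could not show a fall in sorted cells. An assignment of the differences to yolk or liver was not tested. Genes of surface epithelium were lower as well: of 14 epidermis and periderm genes 5 fell (krt5, krt92, krt15, ppl and anxa1a) and none rose, with a median of -1.66. With the probes of a gene averaged, krt5 (limma adjusted p = 0.13), krt15 (0.47) and ppl (0.066) lost their calls. Without the Fli1 array at 18 hpf krt5 (limma adjusted p = 0.099), krt92 (0.064), krt15 (0.097) and anxa1a (0.067) did. Without the Flk array krt5 (0.089) and krt15 (0.071) did, and without the Fli1 array at 24 hpf krt15 (0.068) did. The call of krt5 was also lost in other alternatives, such as no background correction (0.089). Leaving out either whole-embryo array leaves 1, so for these genes only sizes are given, which do not show that a call holds. Without the whole embryo at 18 hpf the log2 differences of krt5, krt92, krt15 and anxa1a were -2.48, -3.10, -1.69 and -2.23. Without the one at 24 hpf they were -2.94, -4.26, -1.60 and -2.17. No gene passed the test among 5 endothelial markers (median 0.95), 10 erythroid (1.35) and 8 myeloid (0.43). None did among 8 pigment cell and neural crest (-0.03), 17 muscle (-0.41) and 5 pronephros markers (0.29). By the 2-fold rule 5 of the 10 erythroid genes were higher and 1 lower in Fli1 cells at 18 hpf (9.89% and 13.0% of all tested). At 24 hpf 6 were higher and 1 lower (4.43% and 7.87%). In Flk cells 5 were higher and 1 lower than in the whole embryo of 18 hpf (6.97% and 6.69%). Beside the whole embryo of 24 hpf 1 was higher and 2 were lower in Flk cells (6.27% and 6.39%).

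The genes whose profile over the 6 arrays was most like each enzyme were found by the root mean square difference of log2 signal after centring each gene on its own mean. For fbp1b they were fabp1b.1 at 0.40, bhmt at 0.91 and krt92 at 1.01, where the median named gene was at 2.63. For bhmt they were apoa1a at 0.47, ppl at 0.56 and fabp1b.1 at 0.57 (median gene 2.02). These neighbours hold the yolk and liver genes and the epithelial genes named above side by side. Because fbp1b and bhmt were picked as low in sorted cells on the same 6 arrays, their nearest profiles are largely bound to be other strongly falling genes. No link to a tissue is read from these neighbours. For nansa they were the purine synthesis gene paics at 0.33, adh8b at 0.36 and zgc:101744 at 0.38 (median 1.43). For uox they were gabpa at 0.39, ctsc at 0.59 and krt18a.1 at 0.73 (median 1.76), and for gldc gsc at 0.56, tsn at 0.72 and hprt1l at 1.04 (median 2.24). The measure covers 6 arrays, 4 of them sorted, and for uox and gldc a single array is far above the other 5.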

How the data were processed

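Each array was scanned at settings 45, 55 and 65, and the deposited scanner files give spot and local background intensity, a spot-over-background ratio and a flag score for each setting or spot, per the file headers. A joined background-subtracted intensity, a scaled intensity and a table of ratios between arrays were also deposited by the authors. Scanner, image software and probe positions are not given in the sources used here. Spot and background intensity at setting 55 were corrected with normexp (offset 50), put on the log2 scale and quantile normalized with limma 3.58.1 in R 4.3.3. Control spots and 68 flagged probes were left out. A gene was represented by its probe of highest mean signal, and the 6139 of these, or probes with no name, that exceeded background on any array were tested, 4 sorted against 2 whole-embryo arrays. Probes were named by accession through RefSeq tables. Pairs of single arrays have no test: a call is a 2-fold difference with the brighter array above background, and a bound ("at least") uses the lowest signal above background on the dimmer array. Genes named are those that pass the limma test or are 2-fold different in 1 direction at both stages, else direct pathway neighbours, of which 1 is not reported here; the 3 nearest profiles are among named genes. The 5 genes, the lists and the tests were chosen with earlier results of these data known. Alternatives covered scaling, background correction, scans, filters, probe choice, stage and each array left out. Nothing says whether samples came from separate clutches, and the number of arrays limits the precision.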

Additional observations from a re-analysis of the deposited data

Results flagged for a closer look

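Of the 16 probes, 3 had 1 sorted array far from the other 3 by Dixon's criterion. Chance meets it in about 1 of 20 groups of replicate arrays. The 4 sorted arrays differ in stage and line and are not replicates, so this rate need not hold for them. The first gldc probe stood out in Fli1 cells at 28 hpf, where it was bright, with a gap of 0.961 of the range of the 4 sorted arrays. The fifth gldc probe was lowest in Fli1 cells at 18 hpf, with a gap of 0.969, although it was below background on all arrays. The second fbp1b probe was lowest in Flk cells after normalization, with a gap of 0.877. It was below background in Flk cells and in Fli1 cells at 18 hpf. Before normalization it read 225 units in Flk cells and 220 units, slightly less, in Fli1 cells at 18 hpf.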

How the results depend on the processing

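No condition has a replicate to pair, so the nearest to a paired fit blocks on stage, over the 4 Fli1 and whole-embryo arrays at 18 and 24 hpf. The count of genes falling over the 6 arrays was 44 and of those rising 3. They became 87 and 6 under 75th percentile scaling, 101 and 5 under the authors' scaling, and 188 and 105 with that block. With 4 arrays the error of the block fit comes mostly from a spread shared over all genes. Its standard errors were thus nearly alike for many genes, such as 0.399 for krt15 and fbp1b and 0.401 for fabp1b.1. The larger counts are therefore not read as a gain from blocking on stage. Requiring signal above background on all 6 arrays gave 13 falling, but of 2050 tested in place of 6139. Stage as a number gave 6 rising. Leaving out 1 array gave 8 to 43 falling and 0 to 6 rising, where the lone whole-embryo array left is assumed to vary like the rest. The lowest count of falling genes, 8, came without the Fli1 array at 18 hpf; it was 20 without the whole embryo at 24 hpf and 27 without the Flk array. The share of higher calls in Fli1 cells at 18 hpf was 43.2% by quantile normalization, 24.3% by 75th percentile and 13.3% by the authors' scaling, which moved the median of all tested to -0.21 from 0.02 on the log2 scale. Of the 5 enzymes, those past 2-fold numbered 1 in each comparison with whole embryos under the filter on all 6 arrays, where bhmt alone was tested, and 3 in place of 4 at 18 hpf with probes averaged; Flk cells against the whole embryo at 24 hpf gave 3, and the other alternatives gave the same counts. The difference of gldc, 1.44, was -0.047 without the Fli1 array at 28 hpf and up to 1.97 without another array, and -0.013 with stage as a block, which also leaves the 28 hpf array out. The first fbp1b probe and the 3 bhmt probes kept their direction under the 3 scalings. Dim sorted signal limits the folds of fbp1b, uox and gldc to bounds.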

Other observations

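In whole embryos bhmt was not alone in being brighter at 24 than at 18 hpf among genes known from liver: of the 17 measured yolk, liver and gut genes 6 were at least 2-fold higher and none was lower, where 5.67% of all genes and unnamed probes were higher. The 6 are named here after their values were seen. The fibrinogen chain genes fgb and fgg, which encode a clotting protein of plasma, were 5.12-fold and 5.05-fold higher at 24 hpf, and fga was at least 2.43-fold higher. The retinol carrier gene rbp4 read 7467 units at 24 hpf and 288.5 units, below background, at 18 hpf, at least 12.8-fold higher. Ceruloplasmin (cp) was 2.80-fold and the alpha-1-microglobulin precursor gene ambp 2.44-fold higher at 24 hpf. All 6 were below background on the 4 sorted arrays. By contrast fabp1b.1, apoa1a and serpina1l, like fbp1b, differed by less than 2-fold between the stages. Other lists had as many: 9 of 17 muscle genes and 6 of 10 erythroid genes were at least 2-fold higher in whole embryos at 24 than at 18 hpf.

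For genes called past 2-fold by their brightest probe, the calls of their other probes were counted. Of 713 other probes of genes past 2-fold in Fli1 cells against whole embryos at 18 hpf, 12.8% passed 2-fold in the same direction and 22 probes in the opposite one. At 24 hpf 21.3% of 324 such probes passed in the same direction and 8 in the opposite one. These other probes are dimmer by the choice of the brightest, and a probe below background on both arrays gets no call. The probes above background were not counted apart, so these shares do not say how often probes of 1 gene disagree. The bright gldc spot was 1 of 5 probes that were at least 16-fold above every other array on the Fli1 array at 28 hpf.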
